A study of Mus musculus with 4 samples.

Results

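Interferon-stimulated genes were followed through injury and recovery of the gastric epithelium in mice. The set holds 43 listed genes, taken by symbol from the gene column of the deposited count matrices, and 41 of them were measured among 32227 genes. Rigi appears in the matrices under its older symbol Ddx58 and was matched by its gene ID. Mx1 and Mx2 are not analysed here. Cells came from the stomach corpus of wild-type C57BL6/J mice aged 6 to 7 weeks and were captured with a 3' single-cell RNA kit, PIPseq T20. Mice received a single oral dose of 350 mg/kg L635, a drug that destroys parietal cells, the source of gastric acid. There was 1 library in each of 4 groups: untreated mice that received PBS, mice 1 day after L635, and mice 3 days after L635 with and without amphiregulin (AREG), a ligand of the EGF receptor. The AREG dose, route and schedule and the number of mice behind each library were not given in the sources used here. With 1 library per group no difference between groups could be tested, and every interval below is a 95% interval that covers counting error only.

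Interferons are secreted proteins that cells release when they sense foreign or displaced nucleic acid. Type I and type III interferons act through JAK kinases on a complex of transcription factors that holds STAT2 and IRF9 and binds the interferon-stimulated response element in the promoters of these genes. Epithelia of the gut respond mainly to type III interferon, and many members also have a low constitutive level that does not need an infection.

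Cells were kept at 500 or more unique molecular identifiers (UMIs), 200 or more genes and at most 50% mitochondrial UMIs. This left 13897 untreated cells and 3926 cells at day 1, and at day 3 12923 with AREG and 7986 without, of 38732 in all, with a median of 2507 to 3013.5 UMIs per cell. Of these cells 38511 were epithelial-like. In these cells Epcam stood at 118 to 207 CPM, counts scaled to 1000000 of the epithelial-like UMIs, and Ptprc, which marks blood cells, at 0.860 to 1.97 CPM. Unnamed clusters were admitted by a score of Epcam, Krt8 and Cdh1, and any cluster named as blood cells would have been left out. These levels therefore do not test the label. Cells were clustered without the interferon genes, and clusters were named from marker lists. Surface mucous cells are called pit-like below. Neck-like and chief-like clusters shared leading genes and were joined after this was seen. A cluster led by Sprr1a held 2471 of the 3743 epithelial-like cells of day 1 and was left unnamed, as was a cluster led by Gm50368. Between the libraries 8 cell barcodes were shared.

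RefSeq promoter windows (build GRCm38.p6, 250 bases before to 50 after each gene's start) were found for 32 members. Both strands were searched for the core of the response element, which was GAAA, any 2 bases (NN) and GAAA again, or TTTC, NN and TTTC when read on the other strand. Neighbouring matches could overlap. A match lay in the windows of 16 of the 32 members, and in 3.44% of all 32851 windows. The match is a description of letters and not of binding. The 5 windows below belong to members on which the results turn, with matches in capitals. Isg15 (chr4:156200769-156201068, minus strand), Ifit1 (chr19:34640639-34640938, plus strand), Ifit3 (chr19:34583279-34583578, plus strand) and the near-copy Ifit3b (chr19:34607707-34608006, plus strand) hold matches, and Oasl2 (chr5:114896684-114896983, plus strand) holds none. The deposited matrices were made on GRCm39, so these coordinates apply to the promoter table only.
Isg15: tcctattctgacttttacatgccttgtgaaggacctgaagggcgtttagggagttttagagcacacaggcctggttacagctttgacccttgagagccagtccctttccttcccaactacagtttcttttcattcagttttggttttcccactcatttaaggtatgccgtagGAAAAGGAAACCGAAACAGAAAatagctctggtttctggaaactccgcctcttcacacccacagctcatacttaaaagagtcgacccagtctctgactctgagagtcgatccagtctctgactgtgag
Ifit1: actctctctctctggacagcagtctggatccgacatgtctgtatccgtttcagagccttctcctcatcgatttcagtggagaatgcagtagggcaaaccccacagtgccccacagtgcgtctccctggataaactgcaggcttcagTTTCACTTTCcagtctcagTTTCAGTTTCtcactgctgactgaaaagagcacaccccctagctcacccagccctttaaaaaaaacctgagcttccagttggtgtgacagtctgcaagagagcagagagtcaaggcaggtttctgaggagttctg
Ifit3: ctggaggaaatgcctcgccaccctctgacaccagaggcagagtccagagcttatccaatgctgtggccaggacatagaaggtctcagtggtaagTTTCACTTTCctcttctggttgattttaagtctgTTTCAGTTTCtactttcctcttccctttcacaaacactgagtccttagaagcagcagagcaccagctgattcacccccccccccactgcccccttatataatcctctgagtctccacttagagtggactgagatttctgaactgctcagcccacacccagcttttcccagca
Ifit3b: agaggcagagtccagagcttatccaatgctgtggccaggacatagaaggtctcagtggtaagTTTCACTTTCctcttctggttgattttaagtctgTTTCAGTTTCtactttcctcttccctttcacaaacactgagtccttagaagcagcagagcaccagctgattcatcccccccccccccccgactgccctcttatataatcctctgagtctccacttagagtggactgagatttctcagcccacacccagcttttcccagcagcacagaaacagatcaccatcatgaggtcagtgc
Oasl2: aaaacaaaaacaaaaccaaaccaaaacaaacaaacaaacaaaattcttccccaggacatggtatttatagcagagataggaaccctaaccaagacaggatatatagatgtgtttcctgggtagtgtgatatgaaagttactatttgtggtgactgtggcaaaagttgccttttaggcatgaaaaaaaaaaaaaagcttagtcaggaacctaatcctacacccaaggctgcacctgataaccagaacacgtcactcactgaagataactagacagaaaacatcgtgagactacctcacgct
Counting from the first transcribed base as 0, the matches of Isg15 began between -78 and -66 and overlapped one another. Those of Ifit1 began at -104 and -85, those of Ifit3 at -156 and -122, and those of Ifit3b at -188 and -154. Oasl2, whose window holds no match, also stood higher at day 3 than at day 1, by a log2 ratio of 4.26 with 1 CPM added. The median log2 ratio of day 3 to day 1 was 1.56 over the 16 members with a match and 0.81 over the 16 without.

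Many members were higher at day 3 than in untreated cells or at day 1, and lower at day 3 with AREG than without. UMIs of each gene were summed over the epithelial-like cells of a library and given as CPM, and ratios are log2 of CPM with 1 added. All 41 members had 20 or more UMIs over the 4 libraries, as did 21227 genes. At day 1 against untreated cells 1 member was at least 2-fold higher and 9 were at least 2-fold lower, against 13.2% and 1.92% of all genes tested. At day 3 against day 1 27 members were higher and 1 lower, against 3.48% and 3.76% of all genes. At day 3 against untreated cells 28 were higher and 0 lower, against 10.6% and 0.961% of all genes. At day 3 with AREG against day 3 without, 0 were higher and 9 lower, against 0.0518% and 0.236% of all genes. The median log2 ratio of the members was -0.14, 1.41, 1.27 and -0.57 in these 4 comparisons, and that of all genes 0.22, 0.06, 0.30 and -0.03. The comparisons are not independent, since the day 3 library enters 3 of them. Many members are low, and with 10 CPM added in place of 1 the count for AREG below day 3 was 2 in place of 9, that for day 3 over day 1 was 7 in place of 27 and that for day 3 over untreated was 5 in place of 28. For day 1 over untreated it was then 0 higher and 1 lower.

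**Figure D1:**
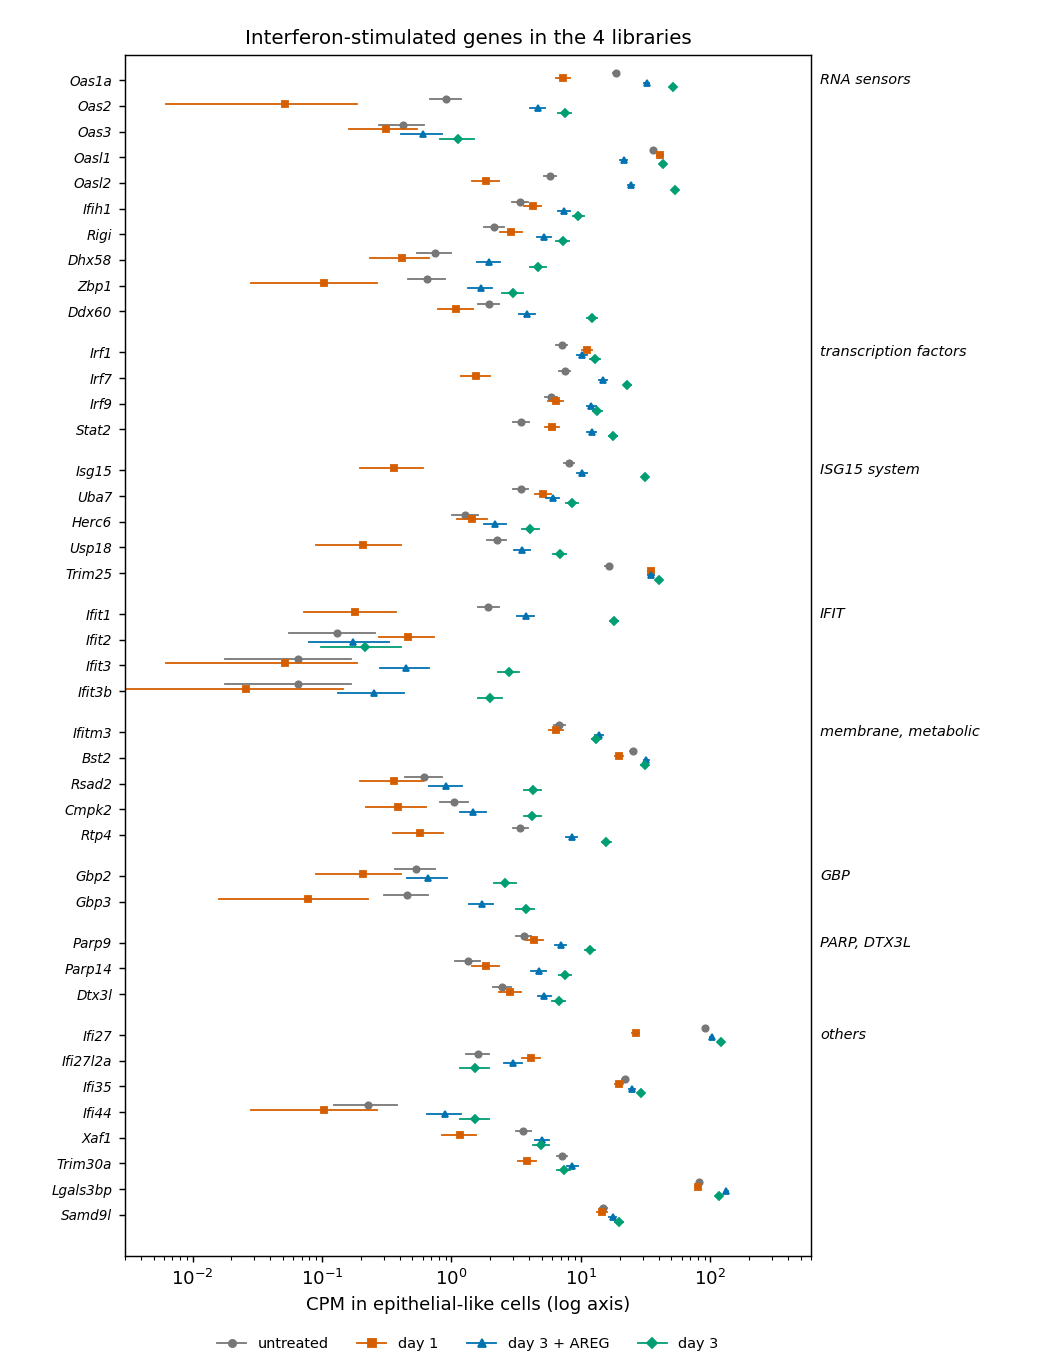
CPM of the 41 measured members in epithelial-like cells of the 4 libraries (log axis), grouped by role, with points for the libraries and bars for exact Poisson 95% intervals. For most members day 3 lies furthest to the right and day 1 or untreated furthest to the left, while Ifitm3, Bst2 and Lgals3bp show little or no gap between the day 3 libraries.

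Sensors of viral RNA were the largest of the role groups. Of 10 sensors 8 were at least 2-fold higher at day 3 than at day 1, and 8 were higher at day 3 than in untreated cells. Of all genes 3.48% and 10.6% were higher in these comparisons. Oasl2, an oligoadenylate synthetase-like protein, had 5.81 CPM in untreated cells and 1.84 at day 1, and at day 3 24.4 with AREG and 53.4 without. Day 3 was the highest library and day 1 the lowest, and none of the 4 intervals overlapped. The log2 ratio of Oasl2 was 4.26 for day 3 over day 1 and -1.10 for AREG over day 3. Oas1a, an oligoadenylate synthetase that starts RNA decay by RNase L, had 18.7 CPM in untreated cells and 7.29 at day 1, and at day 3 32.1 with AREG and 51.1 without. It kept the order of Oasl2 with a narrower range. Its near-identical neighbour Oas1g, no member of the set, had 17.1 and 8.32 CPM, and at day 3 31.9 with AREG and 49.4 without, so reads may be split between the pair and both levels are uncertain.

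Oas2, of the same family, had 0.908 CPM in untreated cells and 0.0517 at day 1 from 2 UMIs, and at day 3 4.64 with AREG and 7.49 without. Ddx60, a helicase that helps the RNA sensor RIG-I, had 1.95 CPM in untreated cells and 1.09 at day 1, and at day 3 3.83 with AREG and 12.1 without. Ddx60 was the sensor with the widest gap between the day 3 libraries, a log2 ratio of -1.44. Dhx58, the helicase LGP2, had 0.746 CPM in untreated cells and 0.414 at day 1, and at day 3 1.95 with AREG and 4.68 without. Rigi and Ifih1, the helicases that signal through MAVS, had 7.21 and 9.54 CPM at day 3, against 2.90 and 4.24 CPM at day 1. Oasl1 stood apart from the other sensors: it had 36.1 CPM in untreated cells and 41.0 at day 1, and at day 3 21.4 with AREG and 43.2 without. Its lowest library was day 3 with AREG, and its log2 ratio of day 3 to day 1 was 0.07. In mice OASL1 is known to hold back translation of Irf7.

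Among the transcription factors, Irf7, the amplifier of interferon production, had 7.48 CPM in untreated cells and 1.55 at day 1, and at day 3 14.9 with AREG and 22.8 without. Its log2 ratio was 3.22 for day 3 over day 1, and all 4 intervals were apart. Stat2 and Irf9, of the complex that binds the response element, were lowest in untreated cells. Stat2 had 3.46 CPM in untreated cells and 6.00 at day 1, and at day 3 12.1 with AREG and 17.6 without. Irf9 had 5.84 and 6.36 CPM, and at day 3 11.99 with AREG and 13.4 without, and the interval of its ratio between the day 3 libraries included no difference. Irf1, which also answers to interferon gamma, had 7.12 CPM in untreated cells and 11.1 at day 1, and at day 3 10.2 with AREG and 12.9 without, the narrowest range of the 4 factors.

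The ISG15 system attaches a ubiquitin-like protein to other proteins. Isg15, the protein attached, had 8.05 CPM in untreated cells and 0.362 at day 1, and at day 3 10.2 with AREG and 31.1 without. The day 1 level rested on few UMIs, and the log2 ratio of day 3 to day 1 was 4.56, the largest of all members. Without the added CPM that ratio had an interval of 5.67 to 7.30. At day 3 the AREG library stood closer to untreated cells than to its own control, with a log2 ratio of -1.51. Usp18, which removes ISG15 and damps the type I receptor, had 2.24 CPM in untreated cells and 0.207 at day 1, and at day 3 3.51 with AREG and 6.85 without. Trim25, a ubiquitin ligase that acts on RIG-I, had 16.4 CPM in untreated cells and 34.6 at day 1, and at day 3 34.7 with AREG and 40.3 without. It was the member that was at least 2-fold higher at day 1 than in untreated cells. Uba7, which activates ISG15, and Herc6, its ligase in mice, had 8.56 and 4.07 CPM at day 3, against 3.42 and 1.28 CPM in untreated cells.

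The IFIT proteins bind foreign RNA, and 3 of the 4 members were at least 2-fold lower with AREG than without, against 0.236% of all genes. Ifit1 had 1.93 CPM in untreated cells and 0.181 at day 1, and at day 3 3.74 with AREG and 17.9 without. Its log2 ratio of -2.00 was the lowest of all members between the day 3 libraries. Ifit3 had 0.443 CPM at day 3 with AREG and 2.76 without, and Ifit3b 0.251 with AREG and 1.997 without. These are near-identical genes, so their separate levels are uncertain, and both stood at or below 0.0649 CPM in untreated and day 1 cells. Ifit2, of the same family, stood at 0.130 to 0.465 CPM in every library and was highest at day 1.

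Membrane and nucleotide-acting effectors were of 2 kinds. Rtp4, a receptor chaperone that limits viral replication, had 3.41 CPM in untreated cells and 0.569 at day 1, and at day 3 8.46 with AREG and 15.7 without. Rsad2, the radical SAM enzyme viperin, had 0.906 CPM at day 3 with AREG and 4.26 without, and Cmpk2, a mitochondrial nucleotide kinase, 1.46 with AREG and 4.21 without. The values of all 3 had the order seen for Isg15, but not all steps were apart. Rsad2 had 0.616 CPM in untreated cells and 0.362 at day 1, and its untreated interval overlapped those of day 1 and AREG. At day 1 a single cell held 42.9% of its 14 UMIs. Cmpk2 had 1.05 CPM in untreated cells and 0.388 at day 1, and its untreated interval overlapped that of AREG. Bst2, which tethers budding virus, had 25.4 CPM in untreated cells and 19.8 at day 1, and at day 3 32.0 with AREG and 31.0 without. Ifitm3, which blocks fusion of virus with endosomes, had 6.78 and 6.41 CPM, and at day 3 13.7 with AREG and 13.2 without. For these 2 genes the intervals of the day 3 libraries overlapped. Gbp2 and Gbp3 are GTPases that coat pathogens. Gbp2 had 0.655 CPM at day 3 with AREG and 2.59 without. Gbp3 had 0.454 CPM in untreated cells and 0.0776 at day 1 from 3 UMIs, and at day 3 1.72 with AREG and 3.73 without. The ADP-ribosylation group of Parp9, its partner Dtx3l and Parp14 was at least 2-fold higher at day 3 than in untreated cells in 3 of 3, and 0 of 3 were 2-fold lower with AREG. Of all genes 10.6% were higher in the first comparison and 0.236% lower in the second.

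The remaining 8 members held most of the exceptions. Ifi27, a mitochondrial protein, had 91.1 CPM in untreated cells and 26.4 at day 1, and at day 3 102 with AREG and 121 without. Parietal-like cells held most of the Ifi27 UMIs in every library. Within them Ifi27 had 369 CPM in untreated mice and 273 at day 1, and at day 3 225 with AREG and 257 without. Its log2 ratio in that class was -0.43 for day 1 over untreated and -0.09 for day 3 over day 1, so the 2-fold changes of the summed level were not seen there. Its relative Ifi27l2a was the member at least 2-fold lower at day 3 than at day 1: it had 1.59 CPM in untreated cells and 4.11 at day 1, and at day 3 3.01 with AREG and 1.52 without. At day 1 a single cell held 38.4% of its UMIs, and without the top cell of each library it was not past 2-fold. Lgals3bp, a secreted glycoprotein, had 81.1 and 80.3 CPM, and at day 3 133 with AREG and 116 without. It was 1 of 6 members with a higher level with AREG than without. Ifi35 had 21.9 CPM in untreated cells and 19.8 at day 1, and at day 3 24.8 with AREG and 29.0 without. Samd9l had 14.9 and 14.5 CPM, and at day 3 17.6 with AREG and 19.6 without. Trim30a had 7.14 and 3.85 CPM, and at day 3 8.59 with AREG and 7.35 without. None of these 3 was past 2-fold in any of the 4 comparisons.

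Members were ranked over the 4 named classes that had 100 cells in every library. Most were highest in pit-like cells in the untreated library and both day 3 libraries, but not at day 1. At day 3 35 of 41 members were at least 2-fold higher in pit-like than in parietal-like cells and 3 were lower, against 7.98% and 15.1% of 18075 genes, with a median log2 ratio of 2.15 for the members and -0.09 for all genes. With AREG 27 were higher and 2 lower, against 7.18% and 13.4%, and in untreated cells 20 were higher and 2 lower, against 3.98% and 22.2%. Isg15 at day 3 had 69.5 CPM in pit-like and 2.66 CPM in parietal-like cells, and Ifit1 35.2 and 1.23 CPM in these classes. The 3 members lower in pit-like cells at day 3 were Ifi27, Ifitm3 and Ifi27l2a. Parietal-like cells held 74.1% of the Ifi27 UMIs and 60.9% of the Ifi27l2a UMIs of day 3, and 81.5% and 84.7% in the untreated library. Among the 4 named classes that had 100 cells in every library, pit-like cells had the highest CPM of 31 members in untreated cells and 9 at day 1, and at day 3 of 32 with AREG and 35 without. At day 1 13 members were highest in parietal-like cells, 9 in the joined neck- and chief-like class and 3 in proliferating-like cells, and 7 had no UMI in these classes. Unequal depth limits this ranking: 3 counts equal 4.26 CPM in pit-like, 1.09 in parietal-like, 6.07 in neck- and chief-like and 13.5 in proliferating-like cells of day 1. Oas3, Zbp1, Ifit3 and Ifi44 led in parietal-like cells on 1 UMI each. The cluster led by Sprr1a, 66.0% of epithelial-like cells of day 1, was not ranked. It held 88.0% of all UMIs and 82.0% of the member UMIs of day 1, so the summed day 1 levels were mostly those of this cluster. Its members other than Ifi27 and Lgals3bp had 205 CPM at day 1. The other libraries held 16 to 19 of its cells each, so it could not be compared between libraries. Ifitm3 was highest in the joined neck- and chief-like class in all 4 libraries, at 39.9 CPM in that class at day 3.

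**Figure D2:**
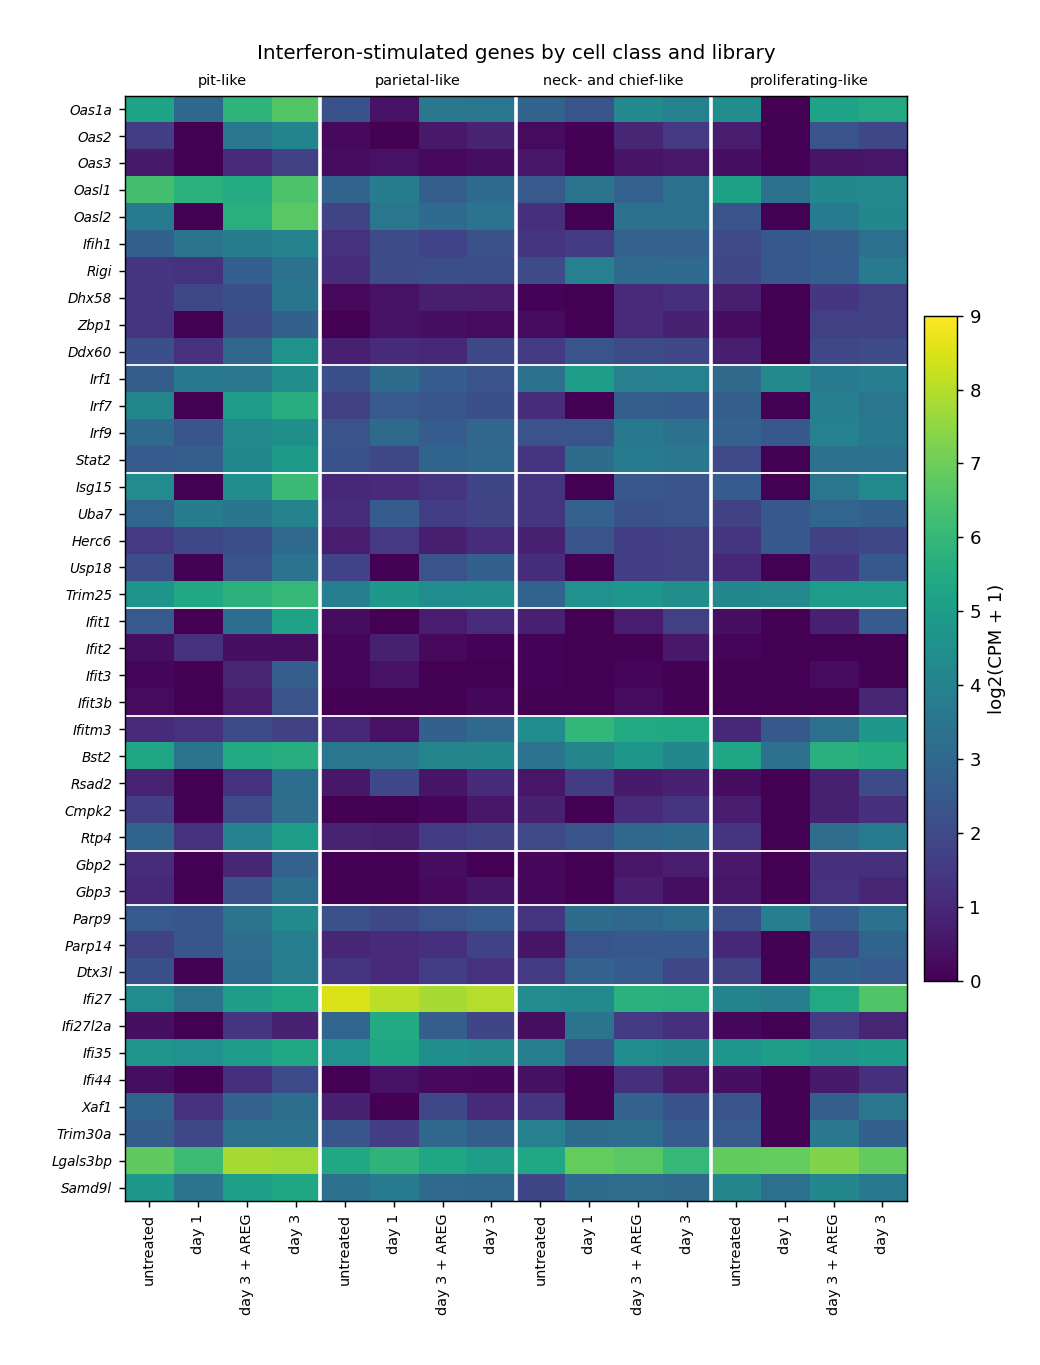
Level of each measured member, as log2 of CPM with 1 added, in 4 cell classes (column blocks) and 4 libraries (columns within a block), with members in rows by role. Most members are brightest in the pit-like columns of day 3, Ifi27 in the parietal-like columns and Ifitm3 in the neck- and chief-like columns.

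Pit-like cells held 57.0% of the member UMIs of day 3 with 36.7% of all UMIs, and with AREG 47.8% with 34.4%. At day 1 they held 1.71% with 1.82%. They made up 31.4% of the epithelial-like cells of untreated mice and 14.99% at day 1, and at day 3 43.6% with AREG and 47.6% without, so class shares moved with the summed levels above. Levels within the class are therefore given too. Summed over all members but Ifi27 and Lgals3bp, pit-like cells had 366 CPM in untreated mice and 213 at day 1, and at day 3 555 with AREG and 957 without. Parietal-like cells had 112 and 208 CPM, and at day 3 160 with AREG and 168 without. The joined neck- and chief-like class had 118 and 243 CPM, and at day 3 278 with AREG and 249 without. Proliferating-like cells had 218 and 135 CPM, and at day 3 339 with AREG and 395 without. Tuft-like cells, too few to be ranked above, had 381 CPM in 125 untreated cells and 386 CPM in 51 cells at day 1. At day 3 they had 966 CPM in 36 cells with AREG and 759 CPM in 16 cells without. Only the last of these sums stood below that of pit-like cells in its library. In the pit-like and proliferating-like classes the intervals of the 4 libraries did not overlap. The proliferating-like sum of day 1 came from 149 cells with a median of 859 UMIs, and its interval was 91.4 to 193 CPM. Parietal-like cells lay in different clusters by library: 1 cluster held 81.1% of those of day 3, another 84.6% of those of untreated mice, and a cluster led by Obp2a and Sprr1a 76.0% of those of day 1. Of the joined neck- and chief-like cells a cluster led by Muc6 held 72.9% at day 3 and 5.03% in untreated mice, and a cluster led by Pga5 2.87% and 57.3%. Of pit-like cells a cluster led by Duox2 held 47.4% at day 3 and 7.95% in untreated mice, and a cluster led by Gkn2 and Sectm1b 2.95% and 44.9%.

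In pit-like cells 40 members passed the minimum of 20 UMIs. At day 3 against untreated cells 30 of them were at least 2-fold higher and 0 lower, against 21.3% and 0.646% of 15469 genes. With 10 CPM added in place of 1, the 30 were 11. Within the cluster led by Duox2 the members other than Ifi27 and Lgals3bp had 1091 CPM at day 3 and 586 CPM in untreated mice, and within that led by Gkn2 and Sectm1b 706 and 386 CPM, with intervals apart. Oasl2 in this class had 102 CPM at day 3, against 11.96 CPM in untreated cells, and Isg15 69.5 against 19.3 CPM. At day 3 against day 1 32 were higher and 0 lower, against 7.52% and 14.7%, but the 561 pit-like cells of day 1 had a median of 763 UMIs, and 16 of the 32 had 0 UMIs there. Isg15, Oasl2, Irf7 and Ifit1 had 0 UMIs in those cells, which allows up to 4.26 CPM by a limit of 3 counts. At day 1 against untreated cells 0 were higher and 16 lower in this class, against 42.6% and 2.85%. Depth limits this count: 11 of the 16 had 0 UMIs at day 1, the untreated level of 7 of these was below the limit of 4.26 CPM, and without the added CPM the interval of the ratio included no difference for 10 of the 16. Pit-like over parietal-like, 7 of 41 members were higher and 7 lower at day 1, against 14.1% and 15.5%. In parietal-like cells 32 members passed, and at day 3 against untreated cells 5 were higher and 1 lower, against 3.74% and 1.85% of 15554 genes. The 5 became 0 with 10 CPM added and 8 when cells were clustered at resolution 2. They were Oas1a, Oasl2, Rigi, Ddx60 and Ifitm3. Ifitm3 had 7.36 CPM at day 3, against 1.05 CPM in untreated parietal-like cells. In barcodes with fewer than 50 UMIs, taken as RNA outside cells, the 5 had 8.999 to 56.9 CPM at day 3, each above its level in parietal-like cells. In the joined neck- and chief-like class 17 of 35 were higher and 1 lower at day 3 against untreated cells, but 32.9% and 0.857% of 15635 genes were too. In proliferating-like cells 17 of 30 were higher and 0 lower, against 26% and 1.31% of 12696 genes, and Isg15 had 18.3 CPM at day 3, against 5.10 CPM in untreated cells.

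Between the day 3 libraries the count of members past 2-fold was highest in pit-like cells. Of their 40 members 0 were at least 2-fold higher and 13 at least 2-fold lower with AREG, against 0.259% and 0.349% of genes, and in parietal-like cells 0 were higher and 0 lower of 32, against 0.0707% and 0.219%. The 13 were Rsad2, Ifit1, Gbp2, Ifit3, Isg15, Ddx60, Ifit3b, Dhx58, Cmpk2, Usp18, Gbp3, Oasl2 and Rtp4. In pit-like cells Isg15 had 20.9 CPM with AREG and 69.5 without, Ifit1 8.58 with AREG and 35.2 without, and Oasl2 49.7 with AREG and 102 without. In parietal-like cells Isg15 had 1.58 CPM with AREG and 2.66 without, and Oasl2 7.94 with AREG and 9.88 without. At such low levels the added CPM narrows a ratio: Ddx60 in parietal-like cells had 1.05 CPM with AREG and 2.86 without and did not pass. With 10 CPM added the 13 pit-like members were 2, and at resolution 2 the 0 lower in parietal-like cells were 2. The difference between the classes was not tested. In the joined neck- and chief-like class 0 of 35 members were past 2-fold in either direction, against 0.352% and 0.678% of genes, and its Oasl2 stood at 8.88 CPM with AREG and 9.11 without. In proliferating-like cells 0 of 30 were higher and 4 lower, against 1.65% and 2.1% of genes.

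**Figure D3:**
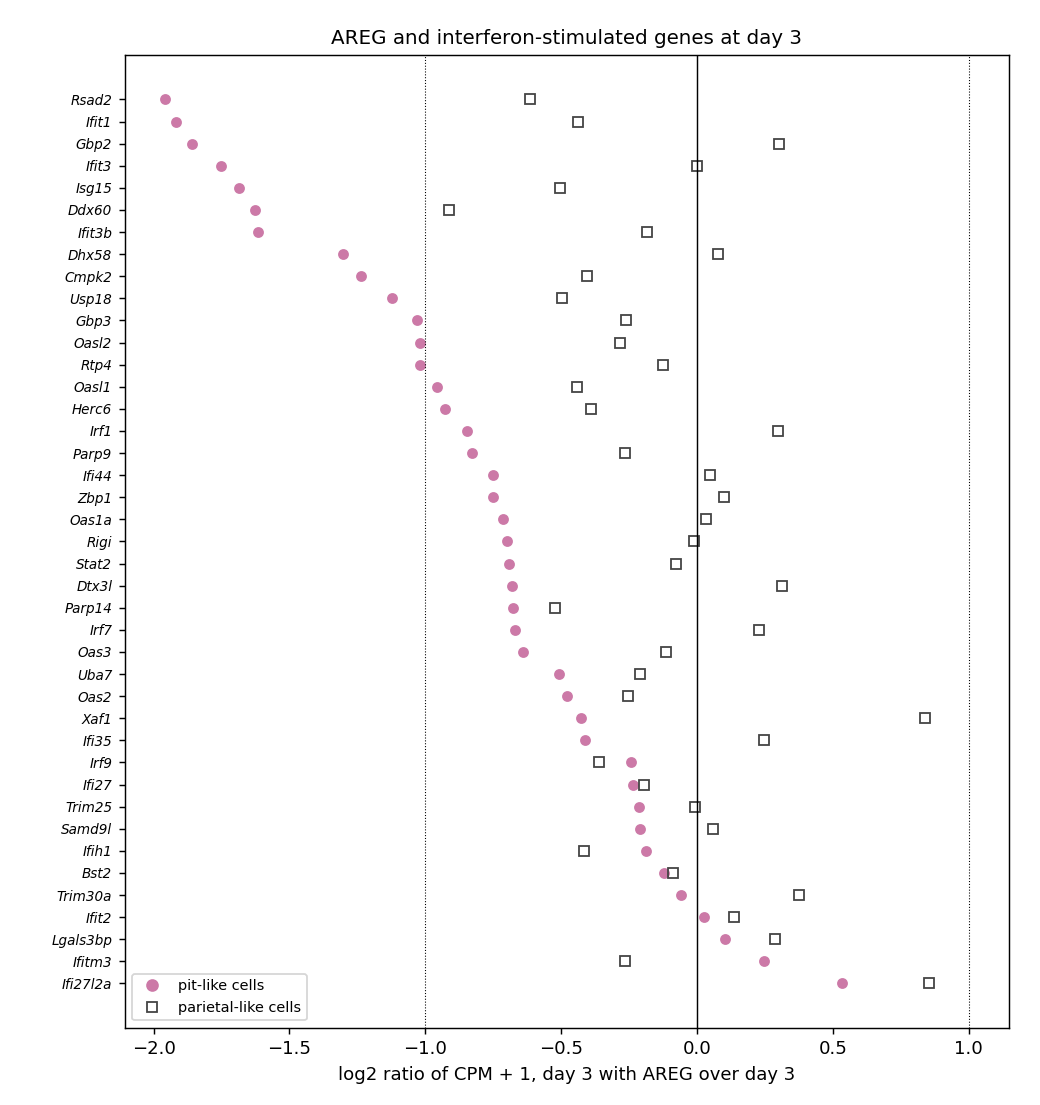
Log2 ratio of CPM with 1 added, day 3 with AREG over day 3, for each measured member in pit-like cells (filled circles) and parietal-like cells (open squares), ordered by the pit-like value, with dotted lines at 2-fold. Rsad2, Ifit1, Gbp2, Ifit3 and Isg15 lie furthest to the left in pit-like cells, and no parietal-like value passes either line.

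Pit-like cells were spread over several clusters, and their proportions differed between the day 3 libraries. A cluster led by Gkn2 and Gkn1 held 2316 cells with AREG and 745 without, and a cluster led by Duox2 1879 and 1797. In the first the members other than Ifi27 and Lgals3bp had 353 CPM with AREG and 480 without, and in the second 709 with AREG and 1091 without. Each of the 7 pit-like clusters with 100 or more cells in both libraries had a lower sum with AREG, with intervals that did not overlap. The unnamed cluster led by Gm50368, whose next genes include Duox2, had a higher sum than any of these clusters, 919 CPM in 264 cells with AREG and 1370 CPM in 693 cells without. Of its 30 members that passed, 0 were higher and 8 lower with AREG, against 1.76% and 5.84% of 7688 genes. When 12 interferon genes were let into the variable genes, a cluster led by Isg15 formed and left the pit-like class, and 1 member in place of 13 was then 2-fold lower with AREG in that class.

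The member UMIs were not spread evenly over pit-like cells. Each cell was thinned to 500 UMIs, the minimum per cell, so that no cell was left out. The shares of pit-like cells given here count all 41 members, with Ifi27 and Lgals3bp among them. The share of pit-like cells with 3 or more member UMIs was then 1.06% (exact binomial interval 0.775 to 1.41%) in untreated mice and 0.357% (0.0432 to 1.28%) at day 1, and at day 3 1.83% with AREG (1.496 to 2.21%) and 4.51% without (3.87 to 5.21%). Without thinning the shares were 21.0% and 2.67%, and at day 3 30.6% with AREG and 42.3% without. The thinned share of parietal-like cells at day 3 was 0.317% with AREG and 0.265% without, from cells with a median of 3687 and 4315.5 UMIs, against 2254 and 2711 UMIs in pit-like cells. In thinned pit-like cells the variance of the member UMIs over their mean, which is 1 when UMIs are spread at random, was 1.56 in untreated cells and 1.07 at day 1, and at day 3 1.27 with AREG and 1.85 without. 10 or more different members were seen in 61 untreated cells, in 0 cells at day 1, and at day 3 in 78 cells with AREG and 214 without, and the fullest cell of day 3 held 30 members.

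**Figure D4:**
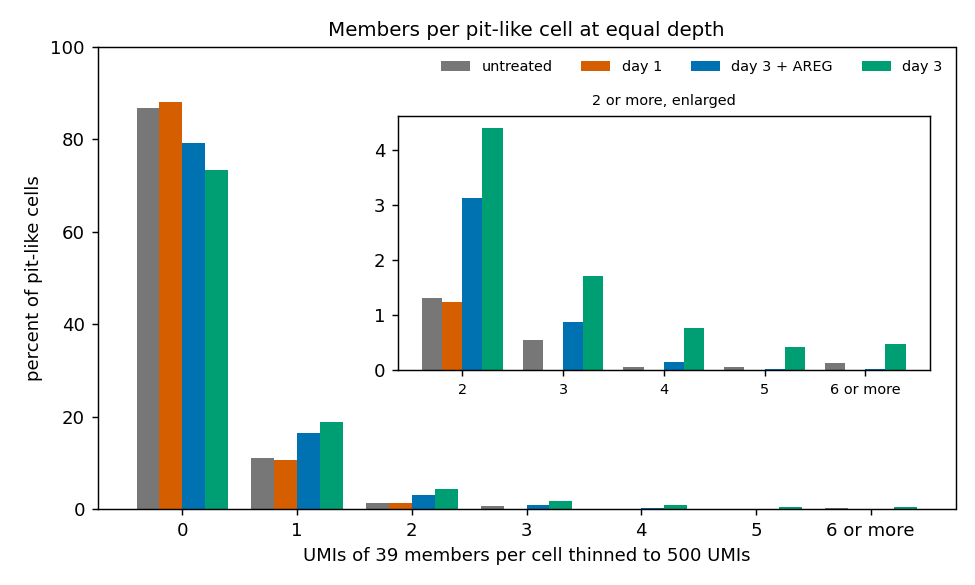
Percent of pit-like cells (y axis) by the number of UMIs of 39 members, without Ifi27 and Lgals3bp, in cells thinned to 500 UMIs (x axis), with 1 bar per library and an inset that enlarges 2 or more. At 6 or more UMIs day 3 has 0.474% of its cells, against 0.138% in the untreated library and 0.0178% at day 3 with AREG. At 3 UMIs the untreated library has 0.551% and day 1 0%, and day 3 has 0.870% with AREG and 1.71% without.

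To see which members shared cells, each was measured in pit-like cells of 2000 or more UMIs that were rich in the other members. Rich meant 3 or more UMIs and 1000 CPM or more of the other members, without Ifi27 and Lgals3bp. Rich cells made up 15.5% of 3011 cells with AREG and 26.1% of 2187 cells without at day 3, and 6.26% of 2443 untreated cells. They are a range and not a cell type, and 140 cells of day 3 lay between 800 and 1000 CPM and 96 between 1000 and 1200. Ifit1 at day 3 had 137 CPM in rich cells and 1.58 CPM in the others, Rsad2 33.0 and 0.397, and Isg15 262 and 5.92. For these genes the rich cells stood 86.7-fold, 83.2-fold and 44.3-fold above the others. The Rsad2 level in the others rested on 4 UMIs, and its log2 ratio had an interval of 4.99 to 8.28. Oasl2 had 318 CPM in rich cells and 40.4 in the others, a ratio of 7.87, and Irf7 a ratio of 9.31. At the other end Ifi27, Irf9, Irf1, Samd9l, Trim25 and Lgals3bp had ratios of 1.13, 1.76, 1.80, 1.84, 1.959 and 2.14. The pit markers Gkn1, Tff1 and Muc5ac, which took no part in the rule, had ratios of 1.08, 1.05 and 0.957, and the median depth was 5431 UMIs in rich cells and 5278.5 in the others. Untreated mice had such cells too, with Isg15 at 239 CPM in rich cells and 5.23 in the others.

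**Figure D5:**
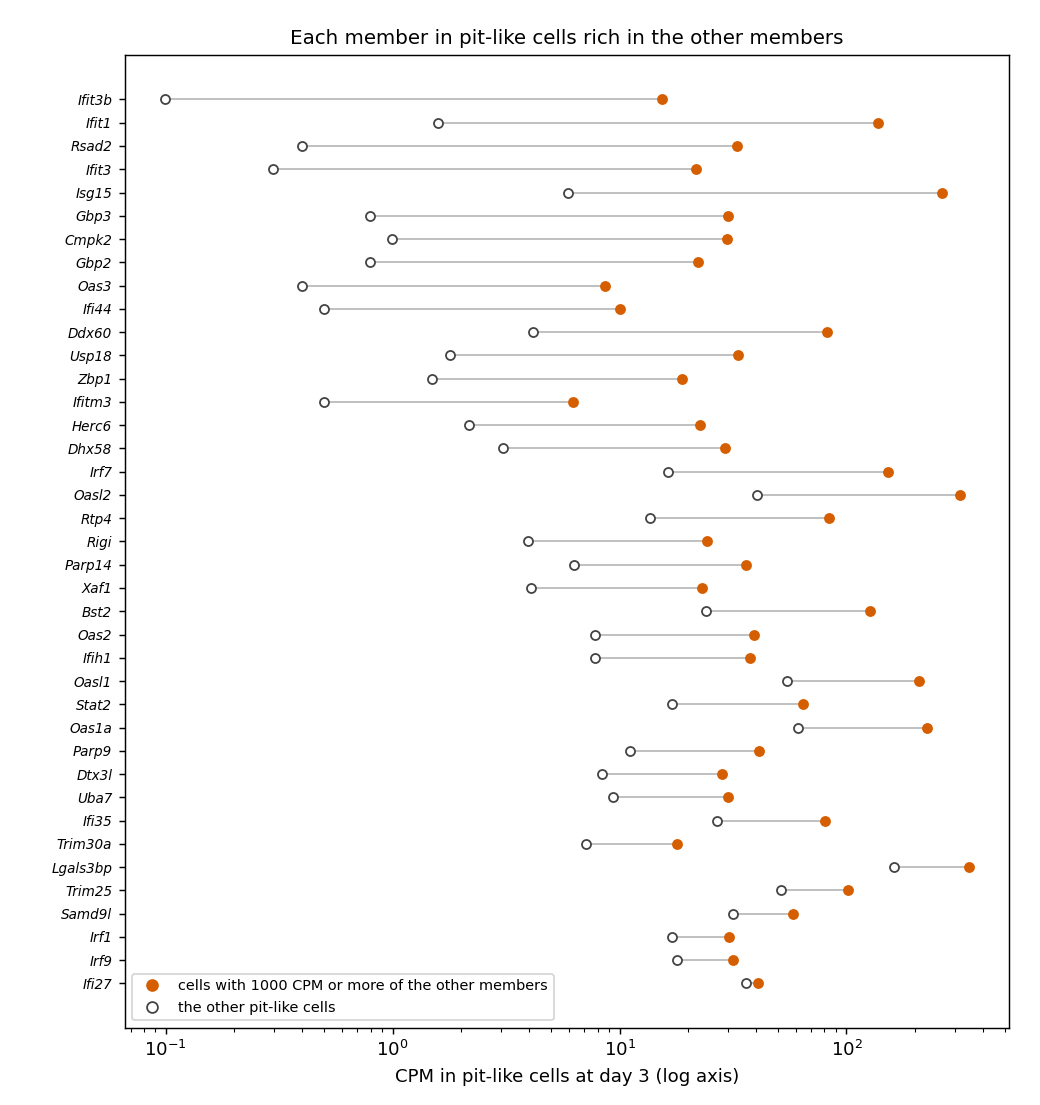
CPM (log axis) of 39 members in pit-like cells of day 3 that were rich in the other members (filled) and in the remaining pit-like cells (open), ordered by the ratio. Ifit3b, Ifit1, Rsad2, Ifit3 and Isg15 have the widest gaps and Ifi27 nearly none. The open points of Ifit3b and Ifit3 rest on 1 and 3 UMIs, and each gene counts among the other members for its near-copy. Ifit2 and Ifi27l2a are left out because of few or no UMIs.

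Interferons and their receptors were measured upstream of the members. Of 21 interferon genes measured, 6 had any UMI, 53 UMIs in all cells together, with 24 of Ifnk as the most and 0 of Ifnb1, Ifnl2 and Ifnl3. Of 6 receptor genes 0 were past 2-fold at day 3 against day 1, where 3.48% of all genes were higher and 3.76% lower. Ifnlr1, the specific chain of the type III receptor, had 1.54 CPM in untreated cells and 5.77 at day 1, and at day 3 3.68 with AREG and 5.02 without. Ifngr1, of the interferon gamma receptor, had 46.2 and 126 CPM, and at day 3 69.8 with AREG and 86.4 without. Both were lowest in untreated cells and highest at day 1, which was not the order of the members. Socs3, a feedback inhibitor of cytokine receptors, had 15.3 and 59.4 CPM, and at day 3 21.3 with AREG and 15.7 without.

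Genes known mainly as targets of interferon gamma gave 5 higher and 0 lower of 11 tested at day 3 against day 1, beside 3.48% and 3.76% of all genes. With AREG against without, 0 were higher and 0 lower, beside 0.0518% and 0.236% of all genes. Their median log2 ratio was -0.50 in that comparison, and that of the members -0.57. Irgm2, a GTPase of pathogen vacuoles, had 3.18 CPM in untreated cells and 0.982 at day 1, and at day 3 5.95 with AREG and 11.3 without. Cxcl10, a chemokine of the same response, stood at 0.211 to 0.617 CPM in every library. Of 29 further type I targets outside the set, 8 were higher and 1 lower at day 3 against day 1, and 11 were higher and 0 lower at day 3 against untreated cells, where 10.6% and 0.961% of all genes were. With AREG against without, 0 of the 29 were past 2-fold, and their median log2 ratio was -0.25. Tap1, part of the transporter that carries peptides for antigen presentation, had 12.96 CPM at day 3, against 4.29 CPM at day 1. Slfn9 was the one that was lower, with 3.85 CPM at day 3, against 14.8 CPM at day 1.

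Marker sums of blood and vessel cells did not have the library order of Isg15, while RNA outside cells had it for some members. The sums for T, NK and innate lymphoid cells, for macrophages and dendritic cells, and for endothelium were higher at day 3 than in untreated cells. A list of 7 immune markers summed to 14.97 CPM in untreated epithelial-like cells and 24.8 at day 1, and at day 3 9.37 with AREG and 9.54 without, with 0 of the 7 at zero in any library. The 10 markers of T, NK and innate lymphoid cells summed to 1.74 and 2.87 CPM, and at day 3 7.15 with AREG and 6.09 without, with 1 to 3 of the 10 at zero in a library. The 10 of macrophages and dendritic cells summed to 1.67 and 5.66 CPM, and at day 3 2.60 with AREG and 3.76 without, with 0 to 2 at zero. The 5 of endothelium summed to 29.2 and 39.6 CPM, and at day 3 38.3 with AREG and 46.0 without, with 0 at zero. In barcodes with fewer than 50 UMIs Isg15 had 8.03 and 1.29 CPM, and at day 3 9.85 with AREG and 32.9 without, and Oasl2 4.76 and 3.70 CPM, and at day 3 21.2 with AREG and 56.9 without. For these 2 genes the levels outside cells had the library order of the cells, and the levels of both in parietal-like cells of day 3 lay below them. Trim30a did not keep that order: outside cells its untreated level was 10.4 CPM and its day 1 level 23.6, and at day 3 it had 40.3 with AREG and 29.9 without. The part of these markers and of free RNA in the differences between libraries was not tested.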

How the data were processed

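The deposited matrices hold raw UMI counts, one per gene in each barcode, which the authors left unnormalized as far as their whole-number values show. The build was GRCm39 (mm39) per the submitters' processing notes, and the aligner was not given in the sources used here. Each library had 25000 cells loaded, per the labels' protocols, and 56007532 to 98893436 UMIs. From the counts, cells were filtered, scaled to 10000 UMIs, reduced to 2000 variable genes without interferon, mitochondrial, ribosomal and haemoglobin genes, 40 principal components and 15 neighbours, and clustered with scanpy 1.11.5 and leidenalg 0.10.2 at resolution 1 (25 clusters). A cluster was named when 3 or more markers of a class were 2-fold or more above the clusters' median at 5 CPM or more, with 1 or more in its top 10 genes. The demand on the top 10 was added after the data were seen and left the clusters led by Sprr1a and Gm50368 unnamed. No doublet caller was run; an alternative left out the deepest cells. Counts were summed per library and class, with 1 CPM added for ratios, and classes were used with 100 or more cells. Genes entered with 20 or more UMIs over the 4 libraries. Intervals are exact Poisson (CPM), Clopper-Pearson (shares) and conditional binomial (ratios). On simulated counts the intervals held the true ratio for 191 of 200 changed genes. A listed value of 0 was read against a limit of 3 counts. No columns of per-sample values were left unused. Values in every library were given for the 16 members with the most UMIs and the 12 with the largest ratio of day 3 to day 1, and other members were given where their role group called for it. One gene of the pathway lists is not reported here. The members, marker lists and pathway lists were chosen with earlier results of these data known.

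In all epithelial-like cells the median log2 ratio of all genes was 0.22 for day 1 over untreated and 0.30 for day 3 over untreated, and 0.09 and 0.19 when the 20 most abundant genes were left out of the totals.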

Additional observations from a re-analysis of the deposited data

Results flagged for a closer look

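Barcodes that were not called cells also held member UMIs above the untreated library, and apart from the levels of single genes in barcodes with fewer than 50 UMIs these data entered no comparison. Counted without Ifi27 and Lgals3bp, barcodes with 50 or more but fewer than 500 UMIs had 252 CPM at day 1, 361 CPM at day 3 with AREG and 586 CPM at day 3 without, against 204 CPM in the untreated library. Barcodes with fewer than 50 UMIs had 274 CPM at day 1, 386 CPM at day 3 with AREG and 644 CPM at day 3 without, against 240 CPM in the untreated library. The day 1 sum stood above the untreated sum in both kinds of barcode, while in epithelial-like cells it was 207 CPM at day 1, against 223 CPM in the untreated library. With 1 library per group these are single values whose spread between mice is unknown.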

How the results depend on the processing

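No paired analysis was possible because each group had 1 library. With 10 CPM added in place of 1, the counts in all epithelial-like cells were 0 higher and 1 lower for day 1 over untreated, 7 higher and 0 lower for day 3 over day 1, 5 higher for day 3 over untreated and 2 lower for AREG over day 3. In pit-like cells they were 11 higher for day 3 over untreated and 2 lower for AREG over day 3, and in parietal-like cells 0 higher and 0 lower for day 3 over untreated. The 1 member higher at day 1 than in untreated cells became 2 at a minimum of 1000 UMIs per cell, 0 without the most abundant genes in the totals and 5 when classes were weighted equally (with neck- and chief-like cells joined). The 1 member lower at day 3 than at day 1, Ifi27l2a, became 0 at 1000 UMIs, at 20% mitochondrial UMIs, without the deepest 5% of cells, without its top cell and, added after seeing the data, without the cluster led by Gm50368. Clustering at resolution 2 gave 8 members higher at day 3 than in untreated parietal-like cells and 2 lower with AREG there. Interferon genes among the variable genes gave 1 in place of 13 lower with AREG in pit-like cells, and a cluster led by Isg15 then lay outside the class. The part of that cluster in the change was not tested. The log2 ratio of the share of pit-like cells with 3 or more member UMIs was 2.09 for day 3 over untreated and 1.01 without thinning. For AREG over day 3 it was -1.30, and -0.47 without thinning, -0.83 at 1000 UMIs, -0.57 for 2 or more UMIs, -3.31 for 5 or more and -1.66 without Ifi27 and Lgals3bp, the last added after seeing the data. Where no construction is named, the cause was not tested. Of 920 values of 23 named members under 10 alternatives, 740 stayed near the main value, 180 moved and 0 changed sign past 2-fold, and of 400 that were past 2-fold 364 stayed so. The 561 pit-like cells of day 1 and their shallow depth limit every statement on that class at day 1.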

Other observations

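Endothelial-like cells were few, 20 in the untreated library, 29 at day 1, and at day 3 10 with AREG and 8 without. Their member UMIs summed to 8801 CPM in the untreated library and 4862 CPM at day 1, and at day 3 to 5184 CPM with AREG and 6131 CPM without. Every one of these sums stood above that of pit-like cells in the same library, but few genes made them: Ifitm3 gave 119 of 215 UMIs in the untreated library and 408 of 628 at day 1, and at day 3 63 of 122 with AREG and 92 of 204 without, and Oas3, Zbp1, Ddx60, Ifit2 and Rsad2 had 0 UMIs in all 4 libraries.

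A cluster of 154 cells led by Nbea was seen at day 1 alone and stayed unnamed. Its score of Epcam, Krt8 and Cdh1, a mean log2 level, was 5.55. That was below the cut for unnamed clusters, which lay 2 under the clusters' median, so it was not counted as epithelial-like. The endothelial-like cluster scored 4.62, and the lowest score of a neck- and chief-like cluster was 6.39. Its members other than Ifi27 and Lgals3bp summed to 393 CPM, of which Oasl2 was 103 CPM and Isg15 0 CPM. Irf8, a transcription factor best known from myeloid cells, had 17.99 CPM in parietal-like cells at day 3.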
